A study of Homo sapiens with 12 samples.

Results

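Small nucleolar RNA (snoRNA) host genes are transcribed into RNAs whose introns carry snoRNAs. Many of those that code for no established protein are named SNHG with a number, though GENCODE 29 typed SNHG32 as protein coding. The genes described here were all symbols made of SNHG and a number (28 symbols) plus GAS5, ZFAS1 and EPB41L4A-AS1, which are hosts with other names, giving 31 of the 60641 symbols in the count table. RNA was sequenced from SRA01/04, an immortalised human lens epithelial cell line, 24 hours into treatment, in 12 libraries. The 4 groups of 3 libraries each had neither compound (NC), asparagine alone (NC-A), 1,2-DHN alone (DHN), or 1,2-DHN together with asparagine (DHN-A). By its title the study asks whether asparagine lessens damage to the lens by naphthalene, of which 1,2-DHN (1,2-dihydroxynaphthalene) is a metabolite that oxidises to a quinone. Doses, the order of addition and the origin of a group's libraries (separate cultures or a shared culture) were not stated in the sources used here, so p-values measure the spread between these libraries only, which may be technical.

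After splicing, the intron of a host transcript is trimmed to a snoRNA, which guides ribose methylation (C/D class) or pseudouridylation (H/ACA class) of ribosomal and other RNAs. The exons are joined into a separate RNA that often holds short reading frames and, for several hosts such as GAS5, is known to be destroyed by nonsense-mediated decay (NMD), a pathway that needs ongoing translation. Many hosts begin transcription at a C followed by a run of pyrimidines, the terminal oligopyrimidine (TOP) start also found on messages for ribosomal proteins, and the RNA of GAS5 is known to accumulate when growth or translation slows.

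In the RefSeq annotation of GRCh38.p14, 30 of the 31 genes enclosed 150 snoRNA genes between them, and SNHG27 enclosed none. SNHG14 held 84 of them, mostly the SNORD115 and SNORD116 repeats of the imprinted Prader-Willi region, while GAS5 held 11 and SNHG1 held 9. By class and leaving unclassed entries aside, 13 hosts held C/D snoRNAs only, 10 held H/ACA snoRNAs only, GAS5 and SNHG12 held both, and 5 held only Cajal body RNAs or unclassed entries.

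The starts of 8 hosts are shown because the way transcription begins is a known shared feature of the family. Each run holds 25 bases before and 25 bases from the annotated start on the strand of the gene, from RefSeq (GRCh38.p14), and capitals mark CTTTT or CTTTC, letters chosen after sequences had been seen.
SNHG5 (chr6:85678709-85678758, minus strand): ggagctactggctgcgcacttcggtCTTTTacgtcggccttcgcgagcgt
ZFAS1 (chr20:49278617-49278666, plus strand): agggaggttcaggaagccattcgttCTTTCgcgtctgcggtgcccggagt
SNHG32 (chr6:31834891-31834940, plus strand): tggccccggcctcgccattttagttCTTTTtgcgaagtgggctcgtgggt
SNHG12 (chr1:28581849-28581898, minus strand): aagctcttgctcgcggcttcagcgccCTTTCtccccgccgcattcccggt
SNHG8 (chr4:118278737-118278786, plus strand): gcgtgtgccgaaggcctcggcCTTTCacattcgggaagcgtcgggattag
GAS5 (chr1:173869021-173869070, minus strand): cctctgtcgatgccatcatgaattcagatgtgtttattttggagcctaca
SNHG1 (chr11:62855861-62855910, minus strand): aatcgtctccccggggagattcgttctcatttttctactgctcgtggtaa
SNHG7 (chr9:136728160-136728209, minus strand): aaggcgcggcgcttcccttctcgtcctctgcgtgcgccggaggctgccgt

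In SNHG5, ZFAS1 and SNHG32, and also in SNHG19, the motif began exactly at the annotated start, in 4 of 27 hosts with a promoter entry (14.8%) against 0.758% of the 27305 promoters in the table. Anywhere in the window, CTTTT or CTTTC was present on the gene's strand in 11 of 27 hosts (40.7%) and in 11.4% of all promoters. On the other strand it was present in 1 host (3.7%) and in 9.46% of all promoters. Of 28 protein-coding snoRNA hosts, drawn from a list with many ribosomal protein genes, 18 held it on the gene's strand (64.3%). Since the letters were chosen after sequences had been seen, these shares describe the windows and test no enrichment. GAS5, SNHG1 and SNHG7 had no match to these letters in their windows. At the annotated start SNHG1 and SNHG7 nevertheless had a C followed by further pyrimidines, so a missing match does not mean a missing TOP start. SNHG6, SNHG9, SNHG15 and SNHG25 had no promoter entry. A match describes letters and is no evidence that a factor binds there, and the windows depend on the annotated start. For ZFAS1 and SNHG12 the start used lay inside the gene coordinates given below and not at their outer end.

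Library totals ran from 12381071 to 27526206 counts, and the share of mitochondrially encoded counts from 2.73% to 3.23%. On the first principal component of all tested genes, library NC-A 1 lay at 65.1 and the other NC-A libraries at 12.5 and 10.4. The lens markers were only partly present: 5 of 14 passed the filter on low counts, with GJA1 and PAX6 giving most of the signal, and CRYAA, MIP and LIM2 had 1 to 6 counts over all libraries. Their summed level was 154 to 168 CPM (counts per 1000000 of scaled library size) in every library, but its members moved. In DHN against NC 3 of the 5 tested rose and 1 fell: CRYAB, a small heat shock protein of the lens, rose by 3.88 ± 0.226 on the log2 scale (edgeR adjusted p = 3.78e-19) from 0.704 to 10.8 CPM, PROX1 rose by 2.06, PAX6 rose by 0.24 and GJA1 fell by 0.27. Those 3 fell and GJA1 rose in DHN-A against DHN, while CRYAB did not pass in NC-A against NC (edgeR adjusted p = 0.214). The part of these changes in the results below was not tested. The summed level of 8 fibroblast markers, led by COL1A1, was 1380 to 1460 CPM in NC, 1210 to 1220 in NC-A, 820 to 872 in DHN and 1190 to 1260 in DHN-A. It therefore moved with the groups, and its part in the results below was not tested. Immune, keratinocyte and pigment cell marker sums reached 3.19, 38.8 and 10.6 CPM, with KRT5, KRT1, CD79A and TYR at 1 to 4 counts in all. In such bulk RNA a lower share of cells and less RNA per cell cannot be told apart.

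Of the 31 hosts, 26 had enough counts to be tested, among 17889 tested genes, and 15 were described in every library. SNHG21, SNHG22, SNHG25 and SNHG27 never exceeded 16 counts in a library and SNHG28 had 0. All 31 together gave 481 to 492.3 CPM in NC, 593.8 to 607.7 in NC-A, 619 to 637.5 in DHN and 553.3 to 563.8 in DHN-A, so no 2 groups overlapped in this sum. On the per-length scale (RPKM, CPM per kilobase of gene, with the authors' gene lengths), the mean level over all libraries was highest for SNHG6 at 33.3, followed by SNHG29 at 14.3, GAS5 at 10.3, SNHG12 at 9.61 and SNHG16 at 5.19. SNHG14 had the highest CPM, a mean of 118, and only 0.965 RPKM, because its listed length was 122609 bases. The authors' lengths equalled the union of GENCODE 29 exons for 13 of the 31 genes, so per-length levels carry that difference. SNHG8, for example, was listed at 6608 bases where GENCODE 29 exons cover 923.

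**Figure D1:**
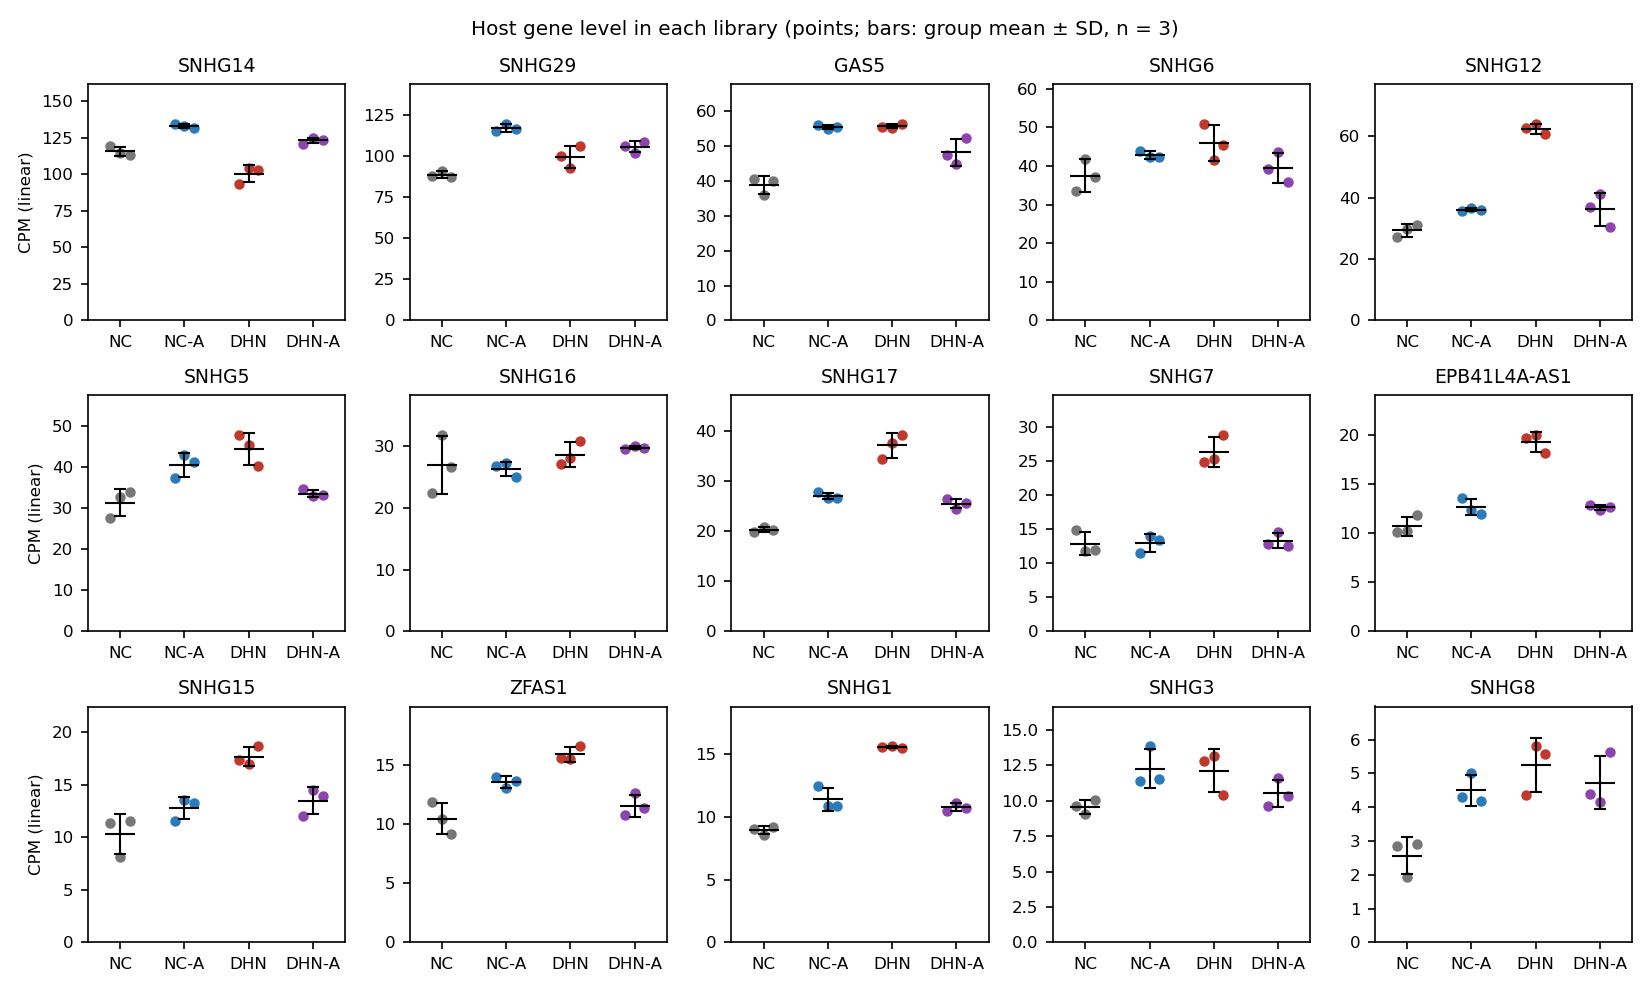
Level of 15 snoRNA host genes in each library, in CPM on a linear axis from 0, by group (NC, NC-A, DHN, DHN-A); each point is a library and the bars are the group mean ± SD (n = 3). SNHG12 and SNHG7 are highest in DHN, GAS5 is at 55.0 to 56.5 CPM in both NC-A and DHN, SNHG14 is lowest in DHN, and the NC libraries of SNHG16 overlap each other group.

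The first comparison asked what 1,2-DHN did to the hosts in cells without added asparagine. In DHN against NC, 14 of the 26 tested hosts rose (53.8%) and 1 fell, where 38.7% of all tested genes were called, 19.7% rising and 19% falling (edgeR, adjusted p with a threshold of 0.05). The median log2 change was 0.43 over the hosts and 0.01 over all tested genes. The 14 were SNHG1, SNHG3, SNHG5, SNHG6, SNHG7, SNHG8, SNHG12, SNHG15, SNHG17, SNHG26, SNHG29, GAS5, ZFAS1 and EPB41L4A-AS1, and the 1 that fell was SNHG14. The largest rises among them were about 2-fold. How often groups separate without overlap over all tested genes was not computed for any comparison. Non-overlap below therefore describes single genes only.

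SNHG12 (chr1:28578538-28582983, minus strand), which carries SNORA16A, SNORA44, SNORA61 and SNORD99, stood at 27.1, 29.9 and 30.9 CPM in NC and at 62.5, 64.0 and 60.7 CPM in DHN. Every DHN library lay above every NC library, and the change was 1.08 ± 0.0744 on the log2 scale (2.12-fold, standard error of the log2 change, edgeR adjusted p = 5.43e-14). SNHG7 (chr9:136724594-136728184, minus strand), host of SNORA17A and SNORA17B, was at 14.8, 11.9 and 12 CPM in NC and 24.9, 25.3 and 28.9 CPM in DHN. Again the groups did not overlap, with a log2 change of 1.05 ± 0.0961 (2.07-fold, edgeR adjusted p = 1.24e-12). SNHG8 (chr4:118278762-118279823, plus strand), host of SNORA24, had lower levels of 2.86, 1.93 and 2.92 CPM in NC and 4.35, 5.82 and 5.58 CPM in DHN. It too did not overlap between groups, and its log2 change of 1.05 had a larger error of 0.189 (edgeR adjusted p = 1.03e-05).

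SNHG17 (chr20:38420588-38435328, minus strand), which encloses members of the SNORA71 family, was at 19.95, 20.85 and 20.32 CPM in NC and 34.6, 37.7 and 39.3 CPM in DHN. The log2 change was 0.87 ± 0.0708, with no overlap (edgeR adjusted p = 2.59e-14). EPB41L4A-AS1 (chr5:112160526-112162501, plus strand), host of SNORA13, was at 10.1, 10.2 and 11.8 CPM in NC and 19.66, 20.02 and 18.17 CPM in DHN, all DHN libraries being higher. Its log2 change was 0.84 ± 0.0959 (edgeR adjusted p = 5.8e-10). SNHG1 (chr11:62851978-62855885, minus strand), host of the U22 cluster of C/D snoRNAs, was at 9.01, 8.59 and 9.21 CPM in NC and 15.6, 15.7 and 15.5 CPM in DHN. The DHN libraries were nearly equal to each other and well above NC, with a log2 change of 0.80 ± 0.101 (edgeR adjusted p = 7.43e-09).

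SNHG15 (chr7:44983023-44986696, minus strand), host of SNORA9, was at 11.3, 8.16 and 11.5 CPM in NC and 17.3, 16.9 and 18.7 CPM in DHN, a log2 change of 0.78 ± 0.109 (edgeR adjusted p = 1.01e-07). ZFAS1 (chr20:49278178-49289260, plus strand), which carries SNORD12, SNORD12B and SNORD12C, was at 11.8, 10.4 and 9.13 CPM in NC and 15.6, 15.4 and 16.6 CPM in DHN, a log2 change of 0.61 ± 0.103 (edgeR adjusted p = 3.08e-06). In both genes the groups did not overlap. GAS5 (chr1:173863901-173869045, minus strand), a transcript known to accumulate in growth-arrested cells, was at 40.58, 35.96 and 40.13 CPM in NC and 55.6, 55.2 and 56.5 CPM in DHN. Its log2 change was 0.52 ± 0.0605, with no overlap (edgeR adjusted p = 8.73e-10). SNHG5 (chr6:85677007-85678733, minus strand), host of SNORD50A and SNORD50B, was at 27.6, 32.7 and 33.9 CPM in NC and 47.9, 45.4 and 40.2 CPM in DHN, a log2 change of 0.49 ± 0.0717 (edgeR adjusted p = 3.05e-07).

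Smaller rises were called in 3 further hosts among the 15. SNHG3 (chr1:28505943-28510892, plus strand), host of SNORA73A and SNORA73B, was at 9.63, 9.08 and 10.1 CPM in NC and 12.8, 13.2 and 10.4 CPM in DHN, and its log2 change of 0.33 ± 0.114 (edgeR adjusted p = 0.0175) was not called without NC 2, DHN 1 or DHN 2 (highest adjusted p = 0.126). SNHG6, host of SNORD87, was at 33.5, 41.9 and 37.1 CPM in NC and 50.9, 41.6 and 45.5 CPM in DHN. These SNHG6 groups overlapped, and the log2 change was 0.28 ± 0.0799 (edgeR adjusted p = 0.0062). SNHG29 (chr17:16438987-16470648, plus strand), host of SNORD49A, SNORD49B and SNORD65, was at 87.6, 90.9 and 86.9 CPM in NC and 99.8, 92.6 and 106 CPM in DHN, a log2 change of 0.17 ± 0.0475 (edgeR adjusted p = 0.00364) that was not called without DHN 3 (adjusted p = 0.0608).

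SNHG14 (chr15:24823608-25419462, plus strand), whose long transcript runs against UBE3A, went the other way. It was at 119, 115 and 113 CPM in NC and 93.7, 104 and 103 CPM in DHN, so every DHN library was lower, and it fell by 0.20 on the log2 scale (standard error 0.0446, edgeR adjusted p = 0.000287). SNHG16 (chr17:76557764-76565348, plus strand), host of SNORD1A, SNORD1B and SNORD1C, was at 22.4, 31.8 and 26.6 CPM in NC and 27, 27.98 and 30.76 CPM in DHN. The groups overlapped, and a change of -0.08 to 0.25 on the log2 scale lay within 2 standard errors of its estimate. Of the 11 tested hosts not described in every library, SNHG26 rose by 0.83 ± 0.211 (edgeR adjusted p = 0.00127). The other 10 were not called; they ranged from -0.31 for SNHG18 to 1.10 ± 0.559 for SNHG9, which averaged 0.448 CPM.

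**Figure D2:**
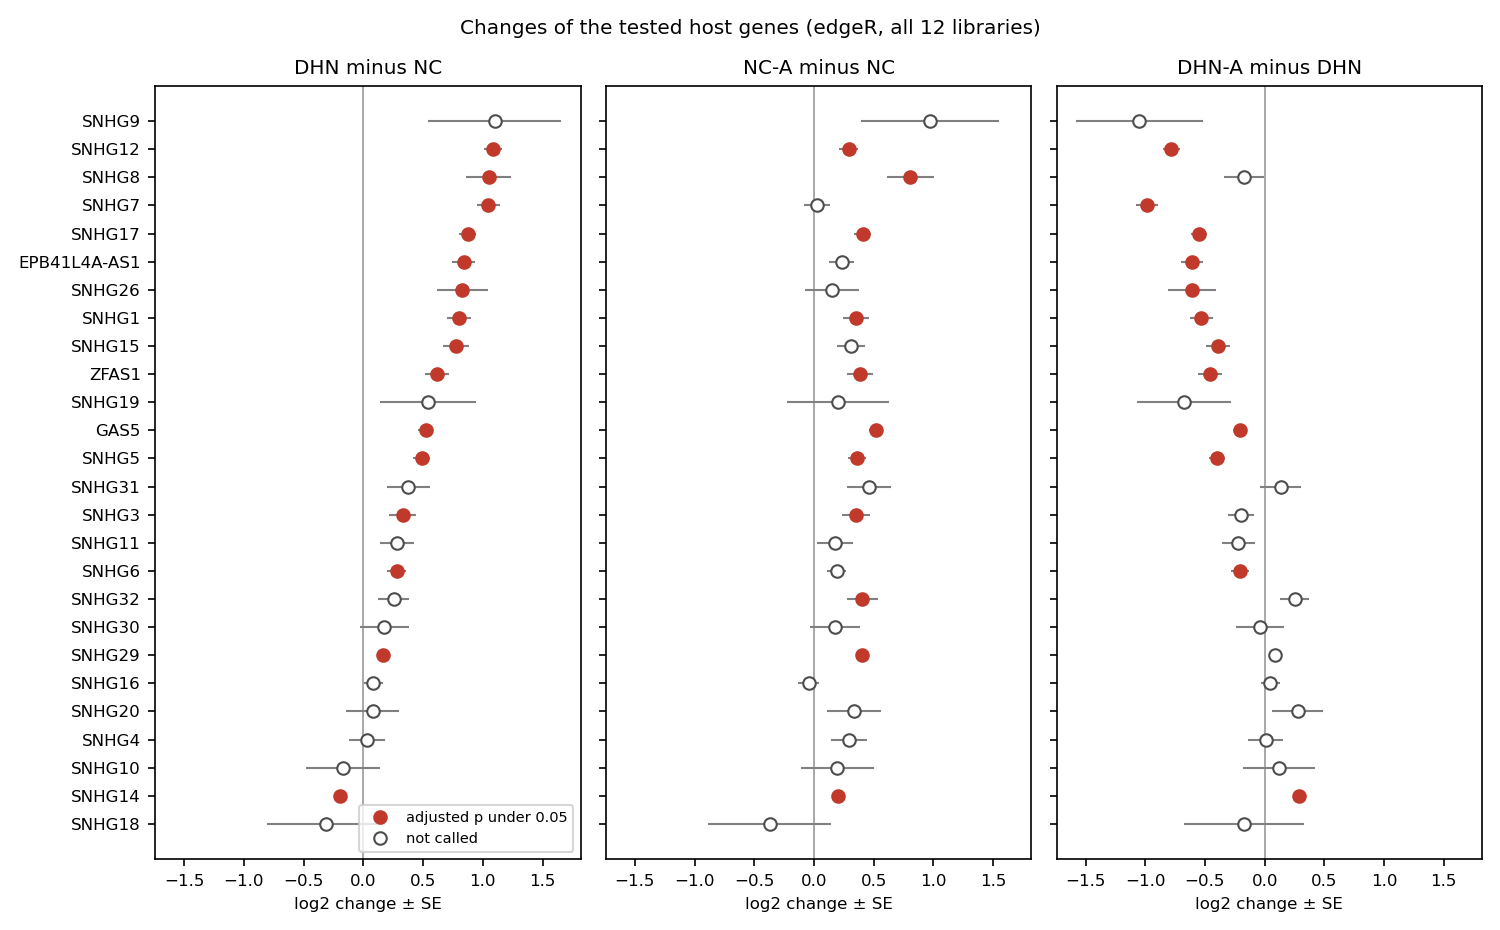
Log2 changes ± standard error of the 26 tested host genes in DHN against NC, NC-A against NC and DHN-A against DHN, in the order of the first (edgeR, all 12 libraries). Filled points have an adjusted p under 0.05; most called genes lie right of 0 in the first and second panels and left of 0 in the third, and SNHG14 does not follow that order.

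By class of snoRNA carried, 6 of 12 tested hosts of C/D snoRNAs rose in DHN against NC and 1 fell, with a median log2 change of 0.27, where 19.7% of all tested genes rose and 19% fell. Among 10 tested hosts of H/ACA snoRNAs 6 rose, with a median of 0.81, and both hosts of the mixed kind rose. Counts in the snoRNA genes themselves were few, since snoRNA symbols held 0.00167% to 0.00254% of each library's counts. Of the 132 enclosed snoRNAs with a row in the table, 14 had any count, led by SNORA73B with 261 over all libraries. Among them only SNORA73B, SNORA71B and SNORD12C had enough counts to be tested, so for the other enclosed snoRNAs no change could be read from these libraries.

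The second comparison asked what asparagine did alone. In NC-A against NC, 11 of 26 tested hosts rose (42.3%) and 0 fell, against 9.32% and 10.9% of all tested genes (20.2% in either direction). With DESeq2 and with edgeR at an unadjusted p under 0.05, the number lower was again 0. The median log2 change was 0.30 over the hosts and 0.003 over all. The hosts that rose were SNHG1, SNHG3, SNHG5, SNHG8, SNHG12, SNHG14, SNHG17, SNHG29, SNHG32, GAS5 and ZFAS1. This comparison shares the NC libraries with the one above, so the values are set side by side only.

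GAS5 was at 56.3, 55.0 and 55.7 CPM in NC-A, above all NC libraries, a log2 change of 0.52 ± 0.0616 (edgeR adjusted p = 9.82e-09) beside 0.52 in DHN. SNHG8 was at 4.29, 5.01 and 4.19 CPM in NC-A, again with no overlap, a log2 change of 0.81 ± 0.196 (edgeR adjusted p = 0.00212). SNHG29 was at 115, 120 and 116 CPM in NC-A, a log2 change of 0.40 ± 0.0476 (edgeR adjusted p = 9.7e-09). These SNHG29 values exceeded those of all NC and all DHN libraries. SNHG17 at 27.8, 26.7 and 26.7 CPM in NC-A had a log2 change of 0.41 ± 0.0747 (edgeR adjusted p = 5.83e-05), and SNHG5 at 37.3, 42.9 and 41.2 CPM one of 0.36 ± 0.0736 (edgeR adjusted p = 0.000291). Both lay above all NC libraries.

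SNHG14 was at 135, 133 and 132 CPM in NC-A, all above NC, and rose by 0.20 ± 0.0443 (edgeR adjusted p = 0.000607), where it had fallen in DHN. ZFAS1 was at 13.97, 13.01 and 13.61 CPM and rose by 0.38 ± 0.107 (edgeR adjusted p = 0.00742), but was not called without NC 3 (adjusted p = 0.0875). SNHG12 was at 35.55, 36.48 and 35.96 CPM, a log2 change of 0.29 ± 0.0797 (edgeR adjusted p = 0.00794) that was not called without NC 1 (adjusted p = 0.0548). SNHG1 at 12.5, 10.9 and 10.9 CPM had a log2 change of 0.35 ± 0.107 (edgeR adjusted p = 0.0154), not called without NC 2 or NC-A 1 (highest adjusted p = 0.111). SNHG3 at 11.4, 13.9 and 11.6 CPM had one of 0.35 ± 0.116 (edgeR adjusted p = 0.0253), not called without NC 1, NC 2 or NC-A 2 (highest adjusted p = 0.194).

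Several hosts that rose in DHN were not called with asparagine alone. SNHG7 was at 11.5, 14.1 and 13.4 CPM in NC-A, overlapping NC, and its log2 change was 0.02 ± 0.106 (edgeR adjusted p = 0.908), with values from -0.19 to 0.24 within 2 standard errors. EPB41L4A-AS1 was at 13.6, 12.4 and 12 CPM in NC-A, a log2 change of 0.23 ± 0.103 (edgeR adjusted p = 0.111). SNHG15 was at 11.5, 13.5 and 13.3 CPM in NC-A, and its change of 0.31 ± 0.116 just missed the threshold (edgeR adjusted p = 0.0507) and passed it without NC 1, NC 3 or NC-A 1 (lowest adjusted p = 0.0229). SNHG6 was at 44.0, 42.4 and 42.2 CPM in NC-A, all above NC, with a log2 change of 0.19 ± 0.0818 (edgeR adjusted p = 0.111), called without NC 2 (adjusted p = 0.0187). Without NC-A 1, the library that stood apart, 10 hosts were called higher in NC-A.

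The third comparison addressed the effect of asparagine on cells exposed to 1,2-DHN. In DHN-A against DHN, 11 of 26 tested hosts fell (42.3%) and SNHG14 rose, against 20.8% of all tested genes that fell and 20.9% that rose (41.7% in all), and the host median was -0.21 against 0.01 over all. The hosts that fell were SNHG1, SNHG5, SNHG6, SNHG7, SNHG12, SNHG15, SNHG17, SNHG26, GAS5, ZFAS1 and EPB41L4A-AS1. The DHN libraries also served in the comparison of DHN with NC and the values are not independent of it.

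SNHG7 was at 12.8, 14.7 and 12.6 CPM in DHN-A, within the NC range, and fell by 0.99 on the log2 scale from DHN (standard error 0.0928, edgeR adjusted p = 3.03e-12). SNHG12 was at 37.0, 41.2 and 30.5 CPM in DHN-A and fell by 0.78 (standard error 0.071, edgeR adjusted p = 5.7e-11). Neither gene's DHN-A libraries overlapped DHN. EPB41L4A-AS1 was at 12.8, 12.4 and 12.7 CPM in DHN-A and fell by 0.61 (standard error 0.0916, edgeR adjusted p = 3.92e-07). SNHG17 at 26.4, 24.6 and 25.7 CPM fell by 0.55 (standard error 0.0673, edgeR adjusted p = 3.88e-09), and SNHG1 at 10.5, 11.1 and 10.7 CPM fell by 0.53 (standard error 0.0965, edgeR adjusted p = 1.16e-05). In these 3 genes too every DHN-A library lay below every DHN library.

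ZFAS1 at 10.8, 12.6 and 11.3 CPM in DHN-A fell by 0.46 (standard error 0.0991, edgeR adjusted p = 0.00016). SNHG5 at 34.6, 32.9 and 33.2 CPM fell by 0.40 (standard error 0.0696, edgeR adjusted p = 7.1e-06), and SNHG15 at 12.01, 14.52 and 13.89 CPM fell by 0.39 (standard error 0.103, edgeR adjusted p = 0.00175). GAS5 at 47.6, 44.8 and 52.5 CPM fell by 0.21 (standard error 0.058, edgeR adjusted p = 0.00292), which left it between NC and DHN. None of these 4 overlapped between DHN and DHN-A, a separation whose frequency over all tested genes was not computed. SNHG6 at 39.3, 43.6 and 35.8 CPM overlapped DHN and fell by 0.21 (edgeR adjusted p = 0.0357), a call lost on leaving out any 1 of 7 libraries, namely NC 3, NC-A 2, NC-A 3, DHN 1, DHN 3, DHN-A 1 or DHN-A 3 (highest adjusted p = 0.155).

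SNHG8 stayed high, at 4.39, 4.17 and 5.62 CPM in DHN-A, overlapping DHN, and its log2 change of -0.17 ± 0.171 was not called (edgeR adjusted p = 0.448). SNHG29, at 106, 102 and 109 CPM, had a log2 change of 0.08 ± 0.0463 (edgeR adjusted p = 0.142), which was called without DHN 3 (adjusted p = 0.0351). SNHG3, at 9.63, 11.6 and 10.3 CPM, had a log2 change of -0.20 ± 0.11 (edgeR adjusted p = 0.147), also called without DHN 3 (adjusted p = 0.0359). SNHG14, at 121, 125 and 124 CPM, lay above all DHN libraries and rose by 0.29 ± 0.0438 (edgeR adjusted p = 4.35e-07). SNHG16, at 29.4, 29.9 and 29.7 CPM, overlapped DHN, with a log2 change of 0.05 ± 0.0809.

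Cells given both compounds were next compared with each control. In DHN-A against NC-A, which asks what 1,2-DHN did where asparagine was present in both groups, 1 of 26 hosts was called, SNHG5, lower, where 0.805% of all tested genes rose and 1.29% fell (2.1% in all). That background moved when single libraries were left out. With all libraries 375 genes were called. The number was 226 without NC-A 2, 170 without NC-A 3, 230 without DHN-A 1 and 143 without DHN-A 2, and 426 without DHN 3. SNHG5 fell by 0.27 (standard error 0.0715, edgeR adjusted p = 0.0292), and the call was lost without NC-A 2, NC-A 3, DHN-A 1, DHN-A 2 or DHN-A 3 (highest adjusted p = 0.21). GAS5 had a log2 change of -0.21 ± 0.0591 (edgeR adjusted p = 0.0531) and was called without NC 2, DHN 3 or DHN-A 3 (lowest adjusted p = 0.0107). The log2 changes of SNHG12, SNHG7 and EPB41L4A-AS1 were 0.01 ± 0.0762, 0.04 ± 0.103 and 0.001 ± 0.0982, and values from -0.20 to 0.24 lay within 2 standard errors. In DHN-A against NC, 8 of 26 hosts rose (30.8%) and 0 fell (the number that fell was 0 also by DESeq2 and at an unadjusted p under 0.05), against 9.83% and 11.2% of all tested genes (21.1% in all). They were SNHG8 with a log2 change of 0.88 ± 0.185, SNHG31 and SNHG32 with 0.51 each, SNHG15 with 0.38, SNHG17 with 0.33, GAS5 with 0.31, SNHG12 with 0.30 and SNHG29 with 0.25. SNHG12 was not called without DHN-A 2 (adjusted p = 0.0531), nor SNHG15 without NC 2 or DHN-A 2 (highest adjusted p = 0.143).

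Whether the response to 1,2-DHN differed with asparagine was tested by the interaction, the DHN-A minus NC-A log2 change less the DHN minus NC log2 change, which compares pairs of groups that share no library. It was negative and called for 13 of 26 hosts (50%) and positive and called for 0 (also 0 by DESeq2 and at an unadjusted p under 0.05), where 12.5% of all tested genes were called negative and 13.2% positive (25.7% in all). The host median was -0.63 and that of all tested genes -0.0002. Negative calls were also frequent in related lists given below, so they are no trait of these hosts alone. The most negative called values were -1.07 ± 0.107 for SNHG12 (edgeR adjusted p = 1.32e-09) and -1.01 ± 0.141 for SNHG7 (edgeR adjusted p = 2.06e-07). SNHG14 and SNHG16 were not called, both at 0.09, and SNHG26 at -0.76 ± 0.303 missed the threshold (edgeR adjusted p = 0.0594). For SNHG14 the interaction lay from -0.04 to 0.21 within 2 standard errors, so its fall with 1,2-DHN was not shown to differ with asparagine. The NC-A level that enters the interaction was itself above that of every NC library in each of the 13 genes except SNHG7 and SNHG15, where the groups overlapped. How often all tested genes separate in this way was not computed, so this is no trait shown for the hosts.

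**Figure D3:**
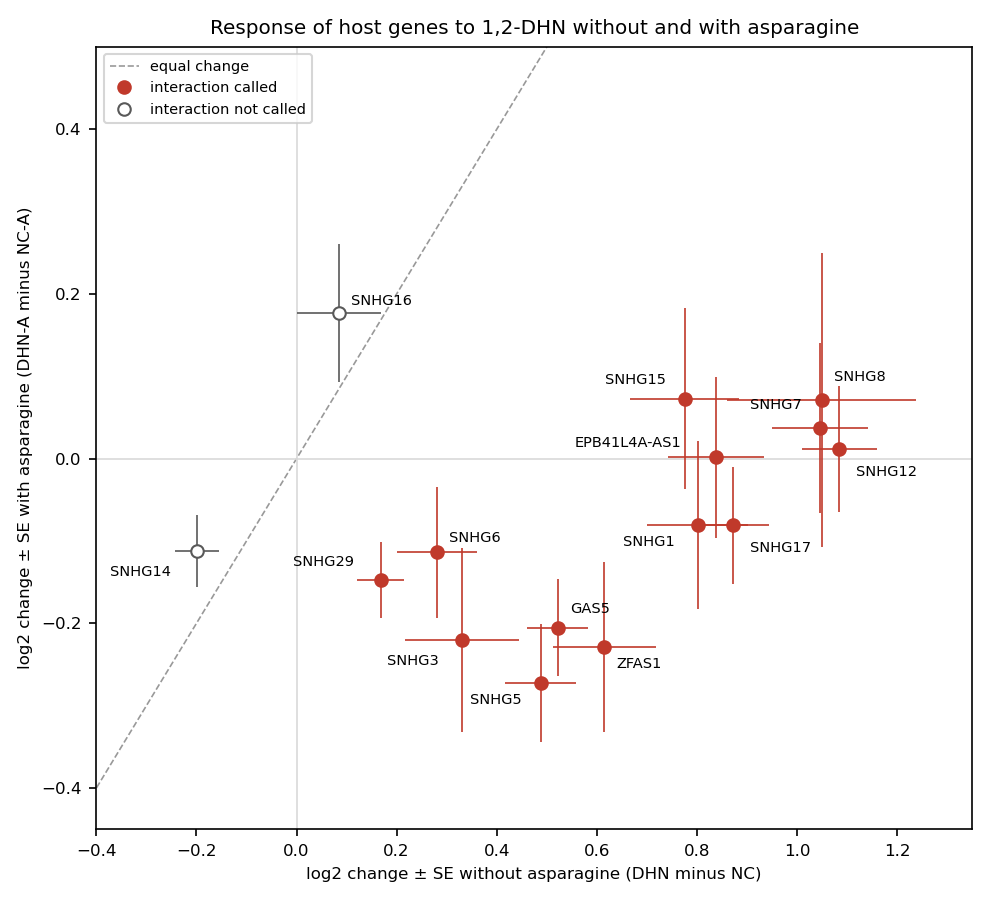
Log2 change ± standard error with 1,2-DHN in cells without asparagine (horizontal axis, DHN minus NC) and with it (vertical axis, DHN-A minus NC-A) for 15 host genes; the dashed line marks equal change. The 13 genes with a called interaction (filled) lie below the line, with vertical values between -0.27 and 0.07, and SNHG14 and SNHG16 (open) lie near it.

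Genes that work on host RNAs or share features with them were counted from lists chosen by function, with earlier results of these data known. The counts are therefore descriptions and no independent test. Over all tested genes, 19.7% rose and 19% fell in DHN against NC, 20.9% rose and 20.8% fell in DHN-A against DHN, and 9.32% rose and 10.9% fell in NC-A against NC, and the counts below are to be read against these shares. Of 16 NMD factors, which recognise and degrade transcripts that stop translation early, 11 rose and 1 fell in DHN against NC, with a median log2 change of 0.16. EIF4A3, an exon junction protein, rose by 0.59 ± 0.0424 (edgeR adjusted p = 4.29e-16), UPF3B by 0.49 ± 0.045 and UPF2 by 0.44 ± 0.0409. In DHN-A against DHN 10 of the 16 fell and 1 rose, and in NC-A against NC only UPF3B was called, rising by 0.17. Among 17 coding genes whose messages are known NMD targets, 14 rose in DHN against NC, among them the stress genes GADD45B at 2.476, GADD45A at 1.184, ATF3 at 1.147 and CDKN1A at 0.805. In DHN-A against DHN 14 of the 17 fell, and in NC-A against NC 8 rose. Several of these 17 are also known to be switched on by stress.

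Of 18 proteins that form or assemble snoRNA particles, 8 rose and 2 fell in DHN against NC. NOP56, a core C/D protein whose own gene hosts snoRNAs, rose by 0.53 ± 0.0379 and NOLC1, a nucleolar chaperone, by 0.54 ± 0.04, while the assembly factor PIH1D1 fell by 0.47. In DHN-A against DHN 9 of the 18 fell and 2 rose, and in NC-A against NC 2 rose, RUVBL1 and DKC1, the H/ACA pseudouridine synthase, a share of 11.1% near the 9.32% of all tested genes. Of 37 protein-coding snoRNA hosts, 18 rose and 4 fell in DHN against NC, with a median of 0.10 beside 0.43 for the SNHG group. HSPA9 and HSPA8, both chaperone genes, rose by 0.57 and 0.34. In NC-A against NC 20 of the 37 rose and 1 fell, but by a median of only 0.13, and in DHN-A against DHN 18 fell and 3 rose.

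Of 14 tested coding genes with a TOP start, ribosomal protein genes aside, 5 rose and 2 fell in DHN against NC, with a median log2 change of 0.04, and 7 rose in NC-A against NC, with a median of 0.11. In DHN-A against DHN 6 of the 14 fell and 3 rose. The elongation factor genes EEF1B2 and EEF2 rose by 0.39 and 0.23 in DHN, and HNRNPA1 fell by 0.19. Of 16 tested long non-coding RNAs outside the host group, which were not checked for enclosed snoRNAs, 7 rose and 3 fell in DHN against NC. MIR22HG was at 1.14 ± 0.0828 and NEAT1, the paraspeckle RNA, at 0.46 ± 0.0507. In NC-A against NC 7 of the 16 rose, and in DHN-A against DHN 6 fell and 4 rose. The ATF4 and amino acid response list had 10 of 12 higher and 1 lower in DHN, with a median of 0.91, and 9 higher and 1 lower in NC-A, with a median of 0.58. In DHN-A against DHN, 6 of these 12 fell and 3 rose. These lists share some genes with each other. By the interaction, 24 of 37 protein-coding snoRNA hosts were called negative (64.9%), with a median of -0.22 beside -0.63 for the SNHG group. So were 13 of 17 NMD-sensitive coding genes, 10 of 12 ATF4 list genes, 8 of 14 TOP genes and 7 of 16 NMD factors. In the snoRNP and long non-coding lists 6 of 18 and 6 of 16 were. Both lists and the ATF4 list had 1 positive call each, the others 0. Negative calls were therefore not particular to the hosts.

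**Figure D4:**
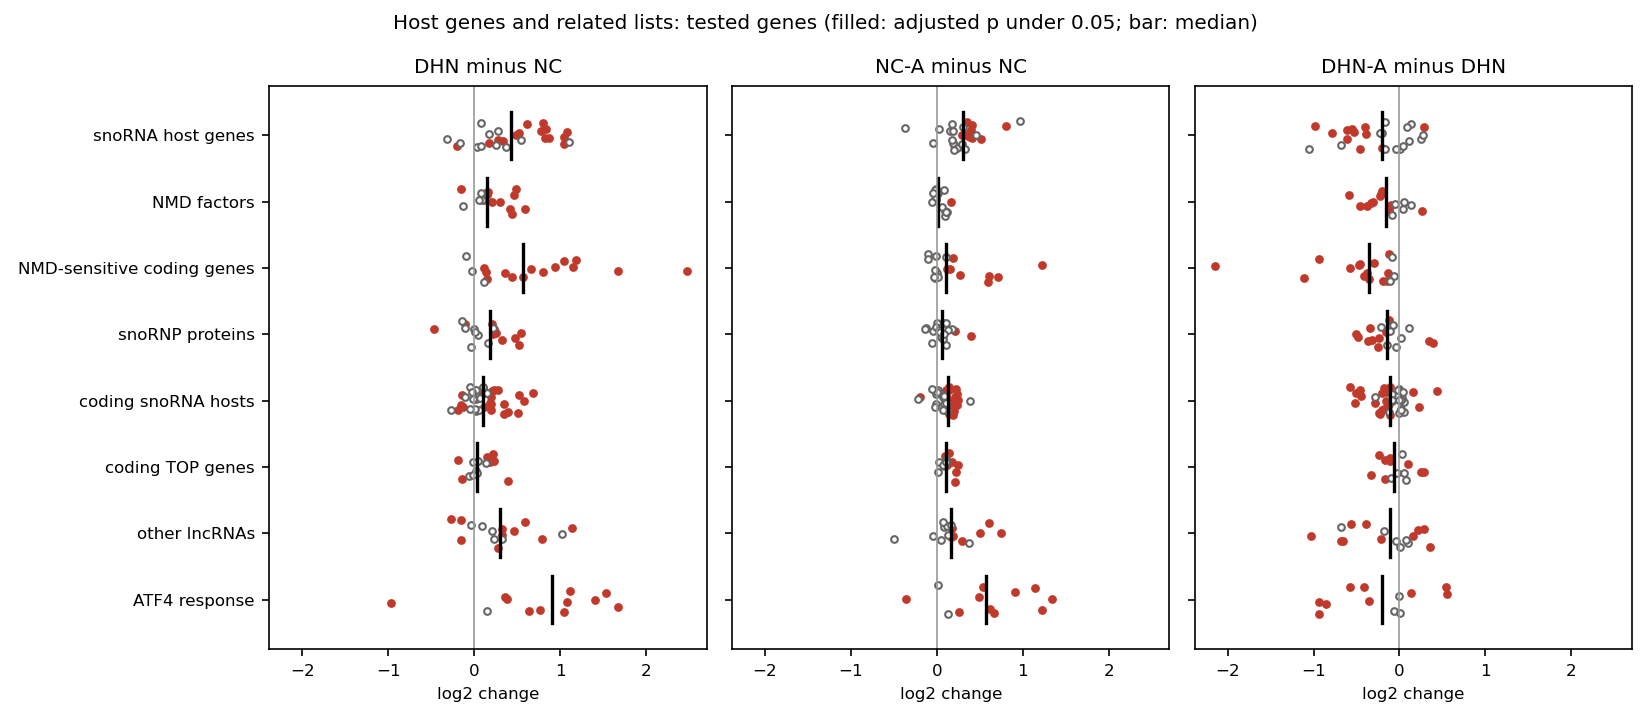
Log2 changes of the tested genes of the snoRNA host group and of 7 related lists in DHN against NC, NC-A against NC and DHN-A against DHN; each point is a gene, filled where the adjusted p is under 0.05, and the bar is the list median. The bar of the host genes stands at 0.43, 0.30 and -0.21.

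Reads of some hosts may belong to other genes. In GENCODE 29 49.6% of the exon bases of EPB41L4A-AS1 lay opposite exons of other genes, as did 30.6% for SNHG16, 29.3% for SNHG6, 26.1% for ZFAS1, 25.2% for SNHG7 and 12% for SNHG29. On the same strand, 5.92% of those of SNHG3 lay in RCC1 and 14% of those of SNHG4 in MATR3. Other tested hosts that shared exon bases on the same strand were SNHG32 (23.2%), ZFAS1 (16.9%), SNHG20 (8.89%) and SNHG14 (5.6%). For ZFAS1 the entries were all typed as miscellaneous RNA, and whether they are separate genes was not checked. The libraries were stranded, per the labels' protocols, but the strand setting used for counting was not stated in the sources used here, so these values are uncertain. SNHG12, SNHG1, SNHG17 and SNHG15 had at most 0.188% of their GENCODE 29 exon bases opposite or within another gene. The authors' lengths of SNHG1, SNHG15 and SNHG17 were longer than these exons, for SNHG17 11824 against 4186 bases. Bases outside the GENCODE 29 exons were not checked.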

How the data were processed

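The authors deposited 1 table of unnormalised read counts, whole numbers for each gene symbol in 12 libraries, beside a gene length in bases that was used here only for RPKM. The reference was hg38 and the aligner Bowtie, per the submitters' processing notes; libraries were stranded, per the labels' protocols. The counting tool, strand setting and annotation were not stated in the sources used here. Genes passing edgeR's filterByExpr (17889) were scaled by trimmed mean of M values and fitted with 1 mean per group over all 12 libraries (edgeR 4.0.16, R 4.3.3, robust quasi-likelihood). Adjusted p-values are Benjamini-Hochberg over all tested genes, with a threshold of 0.05; standard errors were derived from each change and its test. CPM used the scaled library sizes. The procedure was tested on simulated data.

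The members and lists were chosen with earlier results of these data known. Values in every library are given for GAS5, ZFAS1, EPB41L4A-AS1 and tested SNHG genes among the 8 highest by mean CPM or called in at least 3 of 6 comparisons. From each list the 4 tested genes with the smallest p in a comparison were eligible for naming. Alternatives were relative log expression and total count scaling, DESeq2 1.42.0, limma-voom (limma 3.58.1), no filter, only the groups compared, a replicate block, and each library left out. Mean chi-square per gene between libraries of a group was 1.77 to 4.34, so none was a repeat deposit.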

Additional observations from a re-analysis of the deposited data

Results flagged for a closer look

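For 13 host genes the response to 1,2-DHN without asparagine and the response with it differed by the interaction test itself (edgeR, adjusted over 17889 genes). In each the log2 change with asparagine was lower. The differences were -1.07 for SNHG12, -1.01 for SNHG7, -0.98 for SNHG8, -0.95 for SNHG17, -0.88 for SNHG1, -0.84 for EPB41L4A-AS1, -0.84 for ZFAS1, -0.76 for SNHG5, -0.73 for GAS5 and -0.70 for SNHG15. They were smaller for SNHG3 at -0.55, SNHG6 at -0.39 and SNHG29 at -0.32. Across all tested genes 12.5% were called negative, so single calls of this kind were common in these data. Among 37 protein-coding snoRNA hosts the share was 64.9%. All 13 were also called with each library left out in turn. With groups of 3 libraries, no test for a single outlying library was made.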

How the results depend on the processing

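Across the 15 genes described in every library, 55 of 90 values were called. Over their 1032 alternative values 1004 kept direction and call, 28 kept direction and lost the call, and 0 reversed. Of 654 alternative values for uncalled results, 21 became called and 21 reversed. Some of the 15 genes were included because they were called in at least 3 comparisons, which favours kept calls. These totals leave out the other 11 tested hosts. The count of hosts higher in DHN against NC was 14 under every alternative and 13 to 14 with 1 library left out, and that of negative interactions 13 to 14. Hosts lower in DHN-A against DHN numbered 9 to 12 with 1 library left out, and hosts higher there 1 to 2, with 2 without DHN 3. Hosts higher in NC-A against NC numbered 8 to 13 across alternatives (8 with no filter on low counts, 13 with total count scaling) and 9 to 11 with 1 library left out. Those higher in DHN-A against NC numbered 7 to 11 and 6 to 9. For DHN-A against NC-A, where 1 host was lower, DESeq2 gave 2, the fit of only the groups compared gave 3, and leaving out 1 library gave 0 to 2; the cause was not tested.

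With 1 library left out, the log2 change of some uncalled results took both signs. For DHN-A against NC-A the values ran from -0.0353 to 0.055 in EPB41L4A-AS1, -0.0891 to 0.115 in SNHG12, -0.0401 to 0.0968 in SNHG7 and -0.0726 to 0.156 in SNHG8. For SNHG16 they ran from -0.0234 to 0.217 in DHN against NC, -0.154 to 0.0864 in NC-A against NC and -0.038 to 0.202 in the interaction. For SNHG7 they ran from -0.0113 to 0.161 in DHN-A against NC and -0.0349 to 0.122 in NC-A against NC, where no filter on low counts gave -0.00442.

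With the replicate number as a block the counts were 14, 11, 11, 1, 8 and 13 in the order above (DHN against NC higher, DHN-A against DHN lower, NC-A against NC higher, DHN-A against NC-A lower, DHN-A against NC higher, interaction negative), and the block changed no call of the 15 genes. Same-number libraries correlated at -0.176 to 0.229 after removing group means, and other pairs at -0.267 to 0.291. Of 12 libraries, 5 correlated best with their own number. With 3 libraries per group, this cannot settle whether equal numbers share an origin. Total count scaling shifted the median of all genes by at most 0.06. It changed the split of all genes called higher and lower from 3520 and 3399 to 4170 and 2834 in DHN against NC, from 1668 and 1944 to 2140 and 1493 in NC-A against NC, from 144 and 231 to 227 and 158 in DHN-A against NC-A, and from 1758 and 2011 to 2686 and 1295 in DHN-A against NC. Counts were too few to test 5 hosts and most snoRNAs, and low counts left wide errors for SNHG9, SNHG18 and SNHG19.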

Other observations

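Among the snoRNA genes with enough counts to test (13 of 452 symbols), SNORD17, which lies in none of the hosts, rose in DHN against NC by 0.92 on the log2 scale (standard error 0.216, edgeR adjusted p = 0.000541), from 2.09 ± 0.334 to 3.99 ± 0.645 CPM (SD, n = 3). It fell by 0.95 in DHN-A against DHN (standard error 0.21, edgeR adjusted p = 0.000218), to 2.03 ± 0.225 CPM. With asparagine alone its log2 change was -0.07 ± 0.24 (edgeR adjusted p = 0.875). SNORD14E was called lower in DHN-A against DHN, by 1.25 (edgeR adjusted p = 0.0141), at about 1 CPM or less in every group mean apart from DHN, where it was 1.26 CPM. The tested snoRNAs that do lie in hosts, SNORA73B (in SNHG3), SNORA71B (in SNHG17) and SNORD12C (in ZFAS1), were not called in DHN against NC, with log2 changes of 0.11 ± 0.349, 1.15 ± 0.682 and -0.03 ± 0.461. SNORD17 and SNORD14E were singled out after their values were seen.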
